A study of Mus musculus with 10 samples.

Results

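The MHC class II genes on the panel, with the invariant chain Cd74 and the protease cathepsin S (Ctss), were followed in melanoma tumors grown in WT or Siah2-/- mice. The 8 genes were taken by name from the panel and are H2-Aa, H2-Ab1, H2-Eb1, H2-Dma (the panel's spelling of H2-DMa), H2-DMb2, H2-Ob, Cd74 and Ctss. All 8 were found among the 770 gene probes of a NanoString immune profiling panel, a hybridization assay that counts molecules without amplification. YUMMER1.7 cells, an immunogenic mouse melanoma line with a mutant Braf allele that lacks Cdkn2a, were injected into C57BL/6 mice, and whole tumors were taken at day 11. The groups were 5 tumors from WT mice (replicates 2 to 6) and 5 tumors from Siah2-/- mice (replicates 1, 2, 3, 5 and 6), in which the gene for the ubiquitin ligase Siah2 was deleted in the host and not in the injected cells. The panel has no Siah2 probe, so the genotypes could not be checked in these values. The series text names another tumor line, another host gene and day 10, and the sample labels, which name YUMMER1.7, Siah2 and day 11, were followed here. For this assay the paper, too, gives day 10.

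MHC class II molecules present peptides from the endosomes of dendritic cells, macrophages and B cells to CD4+ T cells. Their alpha and beta chains assemble on the invariant chain, which blocks the groove until cathepsins, above all cathepsin S in presenting cells, cut it down to a fragment called CLIP. The H2-DM heterodimer then exchanges CLIP for other peptides, and H2-O restrains H2-DM. Transcription of these genes depends on the coactivator Ciita, which interferon gamma induces in many cell types and which acts on a shared set of promoter elements. C57BL/6 mice lack a working E alpha gene and so carry only the A molecule (H2-Aa with H2-Ab1) at the surface.

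The promoters of this family carry the X and Y boxes, on which Ciita and its partner factors assemble. Stretches of RefSeq promoter sequence (build GRCm38.p6, 5′ to 3′ on the strand of the gene) are shown for H2-Aa (chr17:34287852-34287927, minus strand), H2-Eb1 (chr17:34305768-34305827, plus strand), H2-DMb2 (chr17:34145118-34145178, plus strand), H2-Ob (chr17:34238810-34238867, plus strand) and H2-DMb1, a close relative of H2-DMb2 (chr17:34153089-34153149, plus strand). They are shown because the genes in which both marked motifs were found had log2 changes of both signs, although only that of H2-DMb2 was called. The changes of H2-Eb1 and H2-Ob turned negative under median and quantile scaling. Capitals mark ATGATG, taken from the X box, and GATTGG, which holds the reversed CCAAT of the Y box.
H2-Aa: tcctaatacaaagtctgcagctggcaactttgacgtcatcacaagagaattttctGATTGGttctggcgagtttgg
H2-Eb1: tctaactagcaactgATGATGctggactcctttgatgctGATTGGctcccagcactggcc
H2-DMb2: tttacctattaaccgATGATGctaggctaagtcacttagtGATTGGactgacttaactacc
H2-Ob: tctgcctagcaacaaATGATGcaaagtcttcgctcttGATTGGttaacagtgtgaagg
H2-DMb1: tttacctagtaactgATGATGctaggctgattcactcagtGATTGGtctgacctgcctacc

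The letters were chosen after these promoters had been read, so their matches are a description. On either strand, ATGATG was in 3668 of 32851 mouse promoters of the same length (11.2%) and GATTGG in 5292 (16.1%). Both on the gene strand in this order, with at most 30 bases between them, stood in 17 promoters (0.0517%), among them those of H2-Eb1, H2-DMb2, H2-DMb1 and H2-Ob. The gap was 18 bases in H2-Eb1, 19 in H2-DMb2 and in H2-DMb1, and 16 in H2-Ob, and the printed H2-DMb2 and H2-DMb1 stretches were identical at 52 of 61 bases. In H2-Aa only GATTGG was found. The search was for these exact letters, so it does not show that H2-Aa lacks an X box. Neither motif was in the Ctss promoter, and of 2 promoters of H2-Dma 1 held GATTGG. The H2-Ab1, Cd74 and Ciita promoters were not analysed here.

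In Siah2-/- tumors Ctss, H2-Ab1 and Cd74 were higher and H2-DMb2 was lower than in WT tumors, and H2-Aa, H2-Eb1, H2-Dma and H2-Ob did not pass the test. All values are normalized counts, scaled to 20 reference genes, and changes are differences in log2(value + 1), Siah2-/- minus WT. A gene was called when its p-value from limma, adjusted by Benjamini-Hochberg over the 770 probes, was under 0.05. Of the 8 genes, 4 were called, 3 higher and 1 lower, and their median log2 change was 0.35. Over all 770 probes 41% were called, 31.3% higher and 9.74% lower, with a median log2 change of 0.24. At an unadjusted p under 0.05 by limma, 5 of the 8 genes passed, against 49.9% of all probes. The share of class II genes called was therefore close to that of the whole panel. Probes differ in efficiency, so counts were compared between tumors and not between genes. In whole tumors, fewer cells of a type and less RNA per cell cannot be told apart.

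H2-Ab1 encodes the beta chain of the A molecule. It stood at 8101, 7183, 5864, 7726.5 and 7543 normalized counts in WT replicates 2 to 6. In Siah2-/- replicates 1, 2, 3, 5 and 6 it stood at 10419, 9177, 11462, 16138 and 8607. Every Siah2-/- tumor lay above every WT tumor. The means were 11161 ± 2995 (SD, n = 5) in Siah2-/- and 7284 ± 860 (SD, n = 5) in WT tumors. H2-Ab1 rose by 0.59 on the log2 scale (SE 0.17, adjusted p = 0.020 by limma), and the exact permutation test over 252 divisions of the tumors gave its smallest p, 0.0079. The call was lost without WT replicate 4 (adjusted p = 0.051) and under median scaling (log2 change 0.32, adjusted p = 0.082). It was also lost under positive control scaling (0.42, adjusted p = 0.47) and relative to leukocyte genes (0.17, 0.27). In the 8 tumors with shared replicate numbers the call was lost with the replicate number as a block (0.53, adjusted p = 0.095) and without it (0.53, 0.082). Under quantile scaling the call was kept (0.51, adjusted p = 0.010).

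H2-Aa encodes the alpha chain of the same molecule. In WT replicates 2 to 6 it was at 14391, 13767, 11516, 15362 and 14982 normalized counts. In Siah2-/- replicates 1, 2, 3, 5 and 6 it was at 17844, 15350, 19739.9, 29302 and 15307. Replicates 1, 3 and 5 of the Siah2-/- group were above the highest WT tumor, and replicates 2 and 6 were within the WT range. H2-Aa differed by 0.44 on the log2 scale (SE 0.18, 95% interval 0.042 to 0.84), with an unadjusted p of 0.033 and an adjusted p of 0.073 by limma. Its interval overlapped that of H2-Ab1, 0.20 to 0.97. Scaling moved it to 0.18 (median), 0.36 (quantile), 0.28 (positive controls) and 0.026 (relative to leukocyte genes).

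H2-Eb1 encodes the beta chain of the E molecule, which has no alpha partner in this strain. It was at 3904, 4023, 3547, 4934 and 4083 normalized counts in WT and at 4405, 3749, 5094, 7742 and 4122 in Siah2-/- tumors, in the same order of replicates. Only Siah2-/- replicates 3 and 5 were above the highest WT tumor. H2-Eb1 had a log2 change of 0.25 (SE 0.19, 95% interval -0.17 to 0.67, adjusted p = 0.31 by limma). It turned negative under median and quantile scaling. The E alpha pseudogene H2-Ea-ps was at the floor of the assay in all 10 tumors.

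Cd74, the invariant chain, was at 17681, 16358, 14239.7, 17915 and 17583 normalized counts in WT tumors. In Siah2-/- tumors it was at 21008, 19559, 24392, 34127 and 18483. The groups did not overlap, although Siah2-/- replicate 6 was only just above the highest WT tumor. The means were 23514 ± 6337 (SD, n = 5) and 16755 ± 1531 (SD, n = 5), a fold of 1.37. The log2 change was 0.46 (SE 0.16, 95% interval 0.090 to 0.82, adjusted p = 0.049 by limma), with an exact permutation p of 0.0079. This call lay at the threshold and was lost when any of 8 of the 10 tumors was left out, with adjusted p up to 0.11.

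Ctss, the protease that degrades the invariant chain, showed the largest increase of the 8 genes under each scaling tried, although the decrease of H2-DMb2 was larger in size under all but the main one. In WT tumors it was at 4905, 4904, 3777, 5096 and 4811 normalized counts. In Siah2-/- tumors it was at 8361, 8016, 9491, 11255 and 6697. The lowest Siah2-/- tumor was well above the highest WT tumor. The means were 8764 ± 1712 (SD, n = 5) and 4699 ± 526 (SD, n = 5), a fold of 1.85. On the log2 scale Ctss rose by 0.89 (SE 0.15, adjusted p = 0.0012 by limma), which ranked 109 from the top among the 770 probes. Of the scalings tried, only that to the positive controls ended the call (0.72, adjusted p = 0.15).

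H2-DMb2 encodes a beta chain of the peptide editor H2-DM and fell in Siah2-/- tumors. It was at 181, 202, 225, 195 and 192 normalized counts in WT replicates 2 to 6. In Siah2-/- replicates 1, 2, 3, 5 and 6 it was at 93.0, 124, 119, 155 and 119. Every Siah2-/- tumor lay below every WT tumor. The means were 122 ± 22.0 (SD, n = 5) and 199 ± 16.4 (SD, n = 5), a fold of 0.608. Its log2 change was -0.72 (SE 0.13, adjusted p = 0.0019 by limma), which ranked 46 from the bottom. Here too only scaling to the positive controls ended the call (-0.88, adjusted p = 0.076), and under median scaling the log2 change was -0.98.

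H2-Dma, the alpha chain of H2-DM, was at 836, 868, 755, 921 and 899 normalized counts in WT and at 873, 828, 1095, 1362 and 772 in Siah2-/- tumors. Siah2-/- replicates 3 and 5 were above the WT range and the other 3 within it. The log2 change was 0.18 (SE 0.16, 95% interval -0.17 to 0.52, adjusted p = 0.39 by limma), and it turned negative under median and quantile scaling. H2-DMb1, the other beta chain gene of H2-DM, was not called and its change had the opposite sign to that of H2-DMb2. Its means were 682 ± 154 (SD, n = 5) against 491 ± 79.7 (SD, n = 5), a log2 change of 0.46 (SE 0.17, adjusted p = 0.051 by limma). H2-DMb1 and H2-DMb2 are close copies, and how well their probes tell them apart was not tested.

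H2-Ob encodes the beta chain of H2-O, which restrains H2-DM and is best known from B cells. It was at 23.3, 16.9, 24.2, 16.85 and 18.2 normalized counts in WT tumors and at 22.0, 18.5, 22.7, 30.6 and 10.9 in Siah2-/- tumors. The WT range was contained in the wider Siah2-/- range. Its log2 change was 0.016 (SE 0.24, 95% interval -0.51 to 0.55, adjusted p = 0.96 by limma). These counts are low, as the highest negative control probe of any tumor read 10.7 before the tumor's factor and 15.8 with it, and the interval allows a change of either sign.

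**Figure D1:**
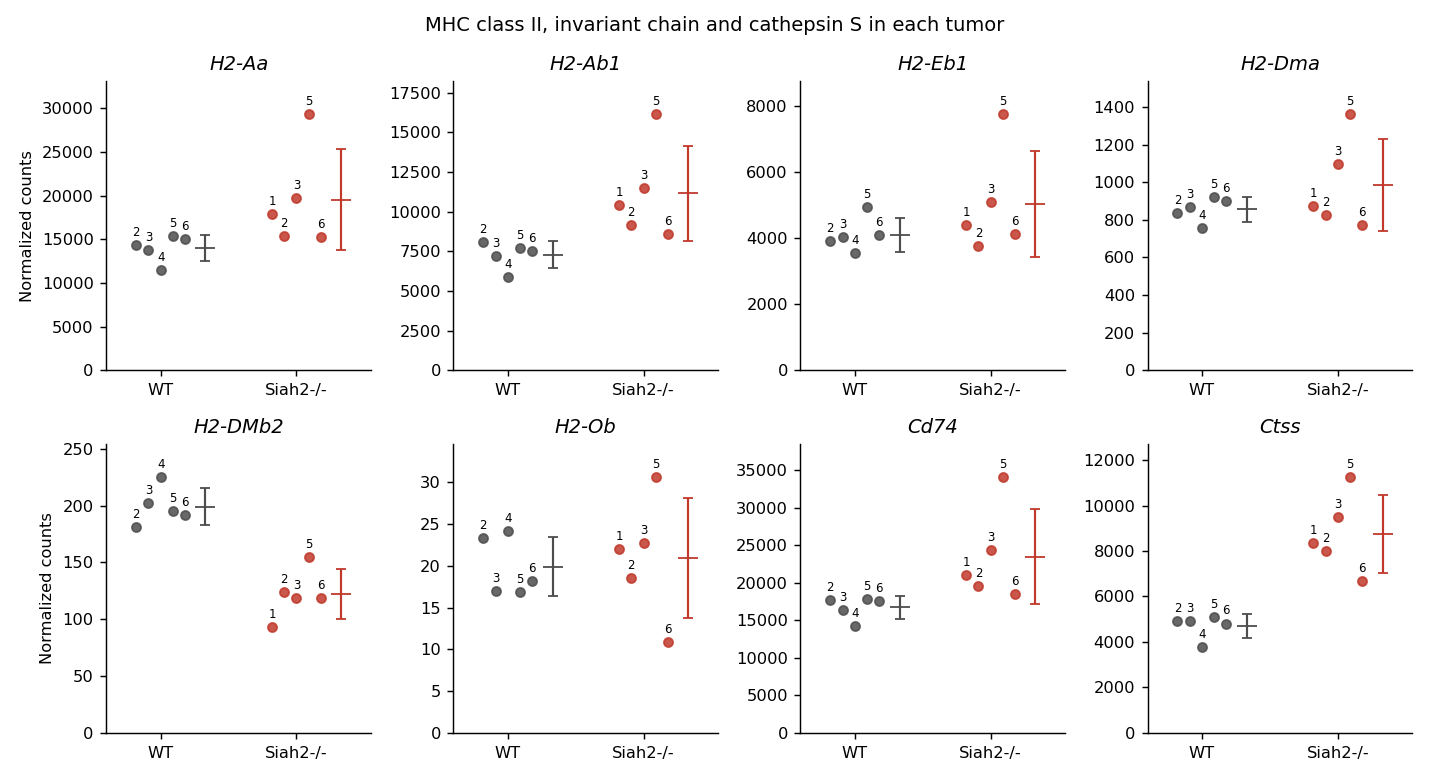
Normalized counts (vertical axis, linear, from 0) of the 8 genes in each of 5 WT and 5 Siah2-/- tumors, with replicate numbers above the points and the mean with its SD beside them. The groups did not overlap for H2-Ab1, Cd74, Ctss and H2-DMb2, and Siah2-/- replicate 5 was the highest Siah2-/- tumor in every plot.

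The groups did not overlap for 4 genes, 3 with Siah2-/- tumors above and 1 below, against 24.5% and 7.01% of all probes (31.6% in either direction). Siah2-/- replicate 5 was the highest of its group for all 8 genes, and replicate 6 was the lowest for 6. Among WT tumors replicate 4 was the lowest for 6 genes and replicate 5 the highest for 5. Siah2-/- replicate 5 exceeded the highest WT tumor for 7 genes, replicate 3 for 6, replicate 1 for 4, and replicates 2 and 6 for 3 each. Without replicate 5, the log2 change of H2-Aa and of Cd74 was at its lowest among the tumors left out in turn, where the ranges were 0.28 to 0.52 and 0.31 to 0.53.

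**Figure D2:**
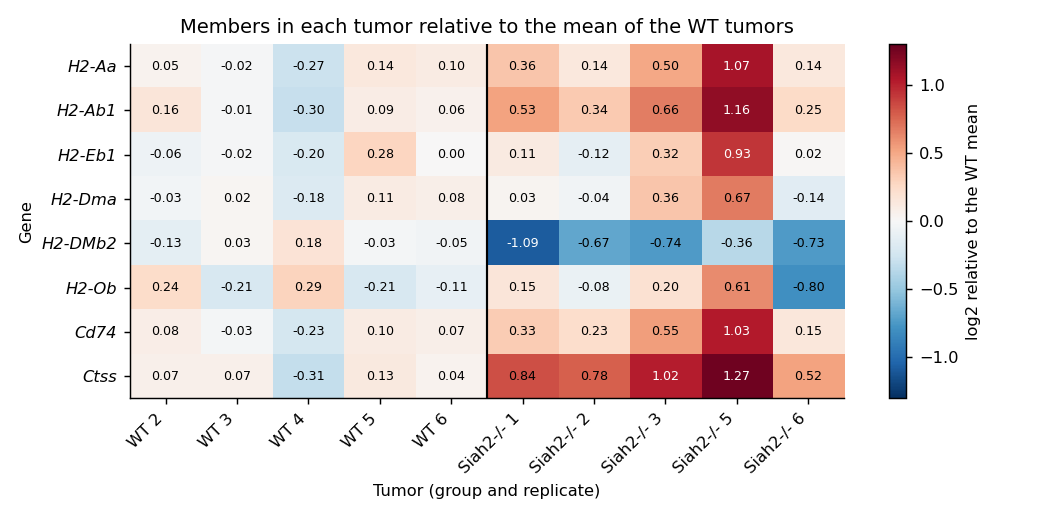
Difference of each tumor (columns) from the mean of the WT tumors for the 8 genes (rows), on the log2(normalized counts + 1) scale, with the values printed in the cells. The Siah2-/- side is positive in every tumor for H2-Aa, H2-Ab1, Cd74 and Ctss and negative in every tumor for H2-DMb2.

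Ratios of partner genes within a tumor do not depend on the single factor by which the tumor was scaled. Of 5 such ratios, 4 passed the exact permutation test after adjustment over the 5, and 3 of these did not overlap between the groups. Ratios of other probe pairs were not tested, so no share stands beside these counts. Of single probes 31.6% did not overlap in either direction. Each log2 difference follows from the changes of its genes given above and is no separate evidence. Ctss over Cd74, the protease over its substrate, was between 0.330 and 0.410 in Siah2-/- tumors and between 0.265 and 0.300 in WT tumors. Its difference was 0.43 on the log2 scale (exact p = 0.0079, adjusted 0.013). Cd74 over H2-Ab1, the chaperone over a chain it binds, was lower, at 2.02 to 2.15 against 2.18 to 2.43 (log2 difference -0.13, exact p = 0.0079, adjusted 0.013). Both genes rose, and H2-Ab1 rose by the larger factor.

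The ratio of H2-Dma over H2-DMb2, the alpha chain and a beta chain of the editor, was 6.49 to 9.39 in Siah2-/- and 3.35 to 4.72 in WT tumors. H2-DMb1, the other beta chain gene, had a log2 change of 0.46, above the 0.18 of H2-Dma. The ratio of H2-Dma over H2-DMb1 was not tested. For H2-Dma over H2-DMb2 the log2 difference was 0.90 (exact p = 0.0079, adjusted 0.013). H2-Aa over H2-Ab1 was 1.67 to 1.82 in Siah2-/- and 1.78 to 1.99 in WT tumors, with 3 Siah2-/- tumors below the lowest WT tumor (log2 difference -0.15, exact p = 0.024, adjusted 0.030). H2-Ob over H2-Dma was 0.0141 to 0.0252 against 0.0183 to 0.0321 (log2 difference -0.16, exact p = 0.48). H2-DMb2 over H2-DMb1, a ratio chosen after the values were seen, was 0.153 to 0.221 in Siah2-/- and 0.329 to 0.533 in WT tumors, which do not overlap.

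**Figure D3:**
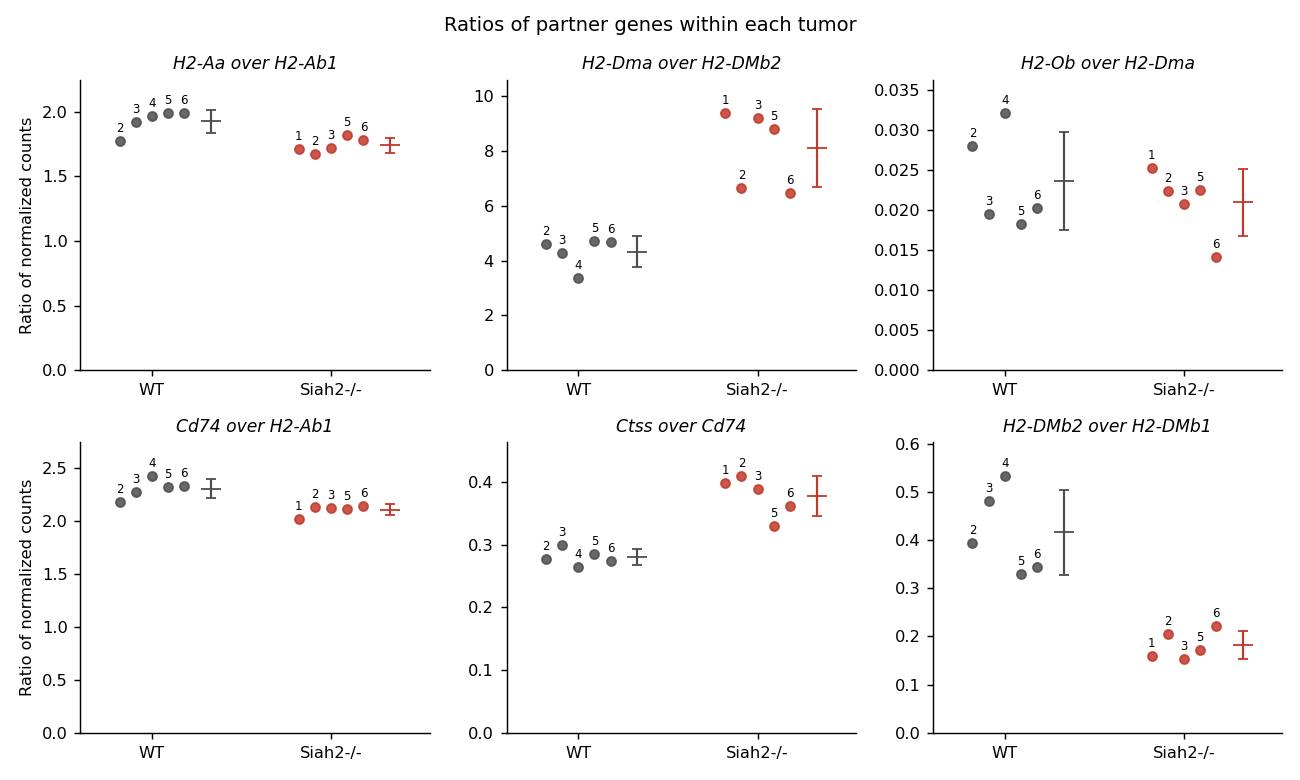
Ratio of normalized counts (vertical axis, linear, from 0) of paired genes in each WT and Siah2-/- tumor, with replicate numbers above the points and the mean with its SD beside them. Ctss over Cd74 and H2-Dma over H2-DMb2 lie higher, and Cd74 over H2-Ab1 and H2-DMb2 over H2-DMb1 lower, in all 5 Siah2-/- tumors.

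Of 6 further genes of the class II pathway 2 were called, both higher, where 31.3% of all probes were called higher and 9.74% lower. These were the endosomal cathepsins Ctsl, at 3300 ± 432 against 2578 ± 176 (SD, n = 5; log2 change 0.35, adjusted p = 0.025 by limma), and Ctsh, at 1771 ± 293 against 1353 ± 143 (SD, n = 5; log2 change 0.38, adjusted p = 0.041). Ciita, the coactivator of the family, was at 78.0 ± 23.4 in Siah2-/- and 66.0 ± 12.4 in WT tumors (SD, n = 5), with a log2 change of 0.21 that was not called (SE 0.21, adjusted p = 0.46). Cd83, which keeps class II at the surface, had a log2 change of -0.29 (adjusted p = 0.23). Under median scaling Ctsl (0.083) and Ctsh (0.11) lost their calls and Cd83 was called lower (-0.56, adjusted p = 0.010), and under quantile scaling Ctsh turned negative (-0.034).

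Of the receptors that bind class II, Lag3, an inhibitory receptor of activated T cells, was at 92.6 ± 25.1 in Siah2-/- and 44.4 ± 13.8 in WT tumors (SD, n = 5; log2 change 1.06, SE 0.25, adjusted p = 0.0070 by limma). The groups did not overlap. Cd4, the coreceptor of helper T cells, had a log2 change of -0.29 (adjusted p = 0.19). Cd4 was called lower under median (-0.55, adjusted p = 0.0054) and quantile scaling (-0.59, 0.0052) and relative to leukocyte genes (-0.70, 0.0013).

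In the list that leads from interferon gamma to Ciita, 3 of 6 genes rose and none fell, where 31.3% and 9.74% of all probes did. The cytokine Ifng went from 11.6 ± 3.69 to 49.1 ± 21.7 (SD, n = 5), a log2 change of 1.92 (adjusted p = 0.0015 by limma). The WT values of Ifng, 6.65 to 16.6, were near 15.8, the highest negative control reading with its tumor's factor. The size of this change is therefore uncertain. The transcription factor gene Irf1 rose by 0.91 on the log2 scale, and the feedback inhibitor Socs1 by 0.98. The receptor chain Ifngr1 (log2 change -0.00070) and the kinases Jak1 (0.047) and Jak2 (0.18) were not called, and under quantile scaling all 3 were called lower. Relative to leukocyte genes Ifng kept its call, Irf1 (0.50, adjusted p = 0.055) and Socs1 (0.57, 0.069) lost theirs, and Ifngr1 (-0.42) and Jak1 (-0.37) were called lower. Of the costimulatory ligands, Cd86 (0.75) and Cd80 (0.43) rose, and Cd40 (0.52, adjusted p = 0.056) and Icosl (-0.17) were not called. Under median and quantile scaling Cd80 lost its call (0.16 and 0.059) and Icosl was called lower (-0.43 and -0.47), and relative to leukocyte genes Icosl alone was called (-0.58, adjusted p = 0.0060). With positive control scaling Ifng alone was called in these class II, receptor, interferon gamma and costimulation lists.

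Class I and peptide loading genes gave a larger count than the class II genes, with 12 of 14 called higher, a median log2 change of 0.70 and none lower. Of all probes 31.3% were called higher and 9.74% lower. H2-K1 (0.60), H2-D1 (0.58) and H2-T23 (1.07) rose, as did the class I coactivator Nlrc5 (0.82). Under median and quantile scaling 9 of the 14 were called higher, where 163 and 153 of the 770 probes were. Relative to leukocyte genes 3 of the 14 were called higher, where 103 of the 770 probes were. Under positive control scaling 0 of the 14 were called, where 60 of the 770 probes were called higher. The difference between the 2 families was not tested. Between the class II genes on chromosome 17 stand the immunoproteasome genes Psmb9 (0.80) and Psmb8 (0.79) and the peptide transporter genes Tap1 (0.76) and Tap2 (0.70), and all of these rose. Along the 12 panel genes of this region, H2-DMb2 was alone in having a negative log2 change, although H2-Eb1, H2-Dma and H2-Ob turned negative under median and quantile scaling, and its neighbours H2-Dma and H2-DMb1 did not pass the test. Cd74 lies on chromosome 18 and Ctss on chromosome 3.

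**Figure D4:**
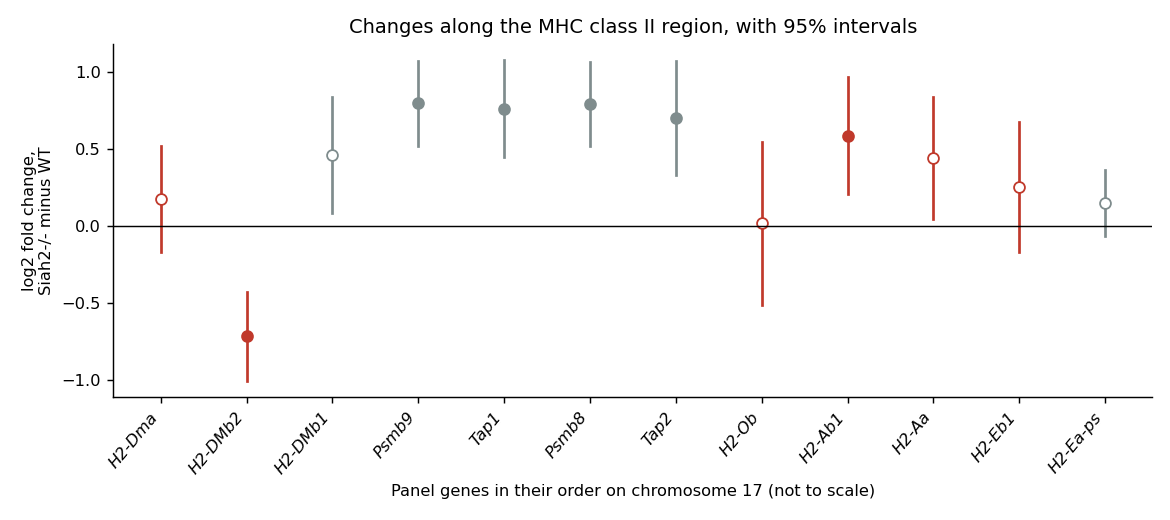
Log2 change, Siah2-/- minus WT (vertical axis), with 95% intervals for 12 panel genes in their order along chromosome 17 (horizontal axis, not to scale), members in red and others in grey, filled where the adjusted p was under 0.05. H2-DMb2 is at -0.72 between H2-Dma at 0.18 and H2-DMb1 at 0.46, and the 4 class I loading genes lie between 0.70 and 0.80.

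**Figure D5:**
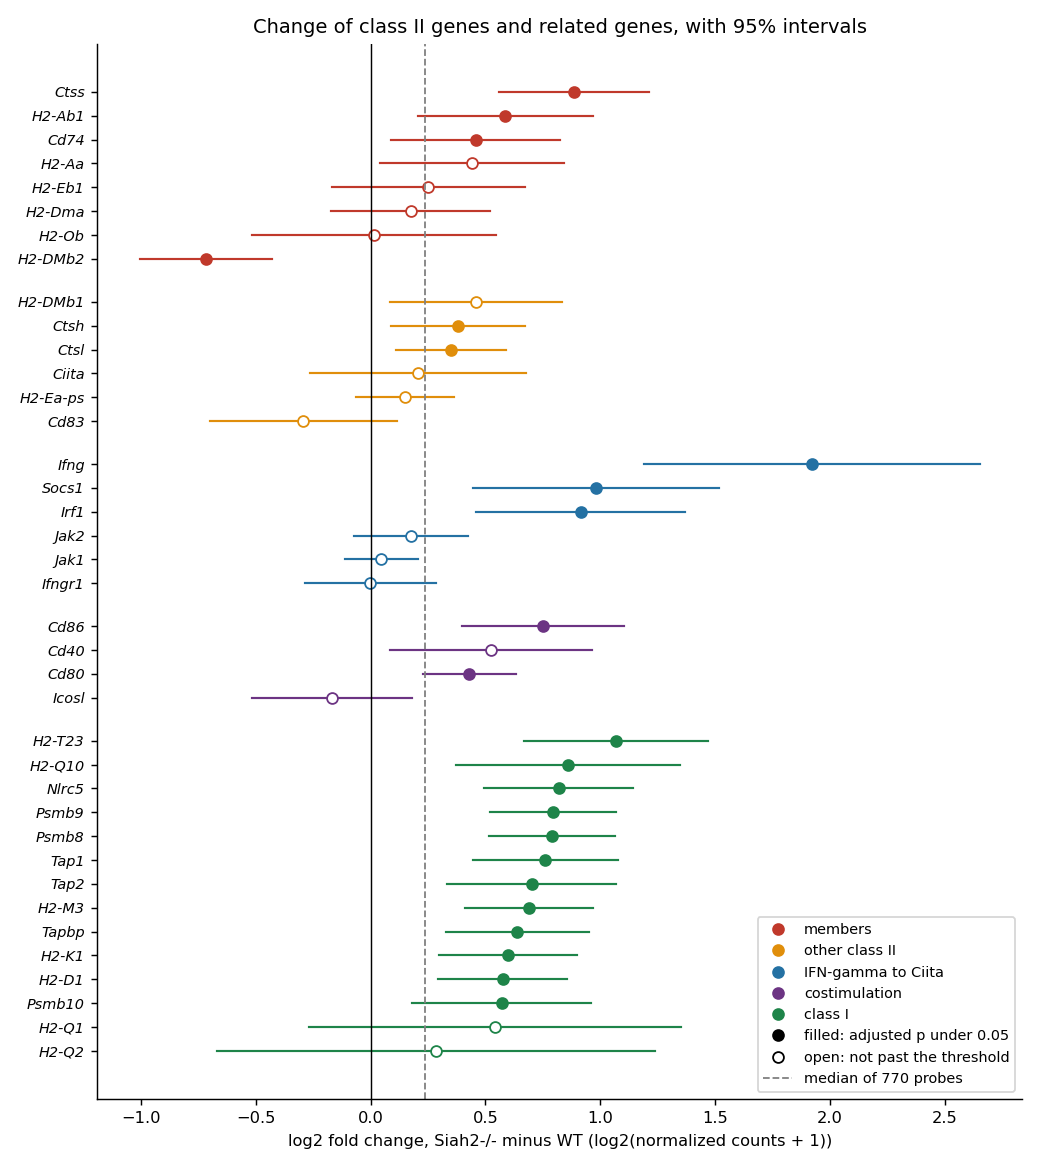
Log2 change, Siah2-/- minus WT (horizontal axis), with 95% intervals for the 8 genes and the related lists (rows), filled where the adjusted p was under 0.05. Most points lie right of 0, and the dashed line marks the median of the 770 probes at 0.24.

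Of 8 genes that mark leukocytes as a whole 6 rose and none fell, where 31.3% of all probes rose and 9.74% fell, and their summed level was 6100 to 9088 normalized counts in Siah2-/- against 4091 to 4929. When each tumor was centred on the median of that list, Ctss (log2 change 0.47) and H2-DMb2 (-1.13) kept their calls. H2-Ab1 (0.17, adjusted p = 0.27) and Cd74 (0.041, adjusted p = 0.79) lost theirs, and H2-Eb1, H2-Dma and H2-Ob turned negative, at -0.16, -0.24 and -0.40.

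Of 11 macrophage genes 3 rose, Cd68, Msr1 and Fcgr1, and 2 fell, Mrc1 and Cd163, and their sum was 20194 to 29682 in Siah2-/- and 17377 to 21101 in WT tumors. Of 8 dendritic cell genes 2 rose, Itgax and Irf8, with a sum of 968 to 1408 against 806 to 909.95. Most of that sum was Irf8, with means of 893 in Siah2-/- and 545 in WT tumors. Ccr7 (log2 change -0.65), Flt3 (-0.53) and CD209e (-0.65) had negative changes that were not called. Cd207 (0.81), Lamp3 (0.12) and Xcr1 (0.071) had positive changes that were not called. CD209e and Cd207 were low, with means of 3.63 and 6.01 in Siah2-/- and 9.22 and 2.91 in WT tumors. The median log2 change of the list was 0.095. Lamp3, which marks mature dendritic cells, stayed under 2 normalized counts in every tumor. Of 7 B cell genes 0 were called by limma and 1 passed at an unadjusted p under 0.05, with a sum of 61.5 to 112 against 58.1 to 91.2, and Blk stayed under 2 normalized counts in all 10 tumors. Of 6 T cell genes 3 rose, with a sum of 567 to 1042 against 427 to 558. Beside the counts of these lists, 31.3% of all probes rose and 9.74% fell.

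All 4 fibroblast genes fell, where 9.74% of all probes did. Their sum was 10332 to 12326 in Siah2-/- and 16494 to 21344 in WT tumors. Of 6 endothelial genes 1 rose and 2 fell, where 31.3% and 9.74% of all probes did. Their sum was 676 to 783 against 700 to 809. Of 8 melanocyte genes only S100b was available to check the label of melanoma. It was at 1.03 to 2.51 in Siah2-/- and 6.29 to 26.7 in WT tumors, close to the floor in the former. The WT range spans 15.8, the highest negative control reading with its tumor's factor. These low values therefore give no firm check of the label in either group. The part of these shifts in the class II values was not tested.

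The deviations of single tumors from their group mean showed which genes ran with class II. Over 10 tumors and 602 probes that averaged 20 or more normalized counts, the 5 other probes most like the mean of H2-Aa, H2-Ab1, H2-Eb1 and Cd74 were Fcer1g, C1qb, Cybb, Ptprc and Ly86, with Pearson r from 0.92 to 0.93. Fcer1g is the signalling chain of Fc receptors, C1qb a complement chain made by macrophages, Cybb a subunit of the phagocyte oxidase, Ptprc the pan-leukocyte marker CD45 and Ly86 a partner of a Toll-like receptor relative. Without Siah2-/- replicate 5 their r was between 0.80 and 0.87. The tumors share their scaling factor in all probes, so these values describe the tumors only.

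Among the 8 genes themselves, H2-Dma (r = 0.97) and Ctss (r = 0.92) ran with the 4 genes of that mean. H2-DMb2 did not, with r = 0.41 over all 10 tumors and -0.50 without Siah2-/- replicate 5. For H2-Ob r was 0.58, and 0.21 without that tumor. H2-DMb1 had r = 0.86 and Ciita r = 0.79.

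Depth was similar in both groups. The summed counts of the 770 probes before the reference gene factor were 443454 to 578705 in WT and 382860 to 581637 in Siah2-/- tumors, and the factor was 0.918 to 1.32 and 1.03 to 1.60. The factors were thus higher in Siah2-/- tumors on the whole, with overlap between the groups. Between 39 and 84 probes per tumor stood at the floor. Neither labels nor methods tie tumors to a batch, cartridge or date, and they do not say whether the 5 tumors of a group came from separate litters, so the p-values measure the spread between these tumors.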

How the data were processed

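RNA (100 ng) from 10 tumors was hybridized to a panel of 784 probes, 750 endogenous, 20 reference, 6 positive and 8 negative controls. The signal values deposited by the authors are normalized counts per probe. They used nSolver version 2.0, left out samples with outlying positive controls and scaled each sample by the geometric mean of its 20 reference genes. The values also show a background subtraction and a floor of 1 before scaling. Where a tumor's factor was under 1, the floor after scaling was again 1. Of the low values, 100% were within 0.1 of a step of the tumor's factor. Because the steps do not give whole reads, no count test was run.

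Here log2(value + 1) of the 770 genes, the reference genes included, was compared with limma version 3.58.1 in R version 4.3.3 (lmFit and eBayes, two-sided, no covariates). Single genes and ratios were also tested by two-sided exact permutation over 252 divisions in Python version 3.11.15. Groups came from the sample labels. The members, gene lists and tests were chosen with earlier results of these data known. All 8 members were named, as were genes of the related class II lists, the threshold passers and extremes of the other lists, and the 5 probes most like class II. The fit was tested on simulated data for 770 genes. Of 200 genes given a log2 change of 1, it recovered 85%, with 2.86% of 175 calls false and 0 calls when no gene was changed. Alternatives were another pseudocount, scaling, floor, filter and test, the replicate number as a block, and each tumor left out. Intervals are 95% intervals. Promoters came from RefSeq tables. Of the listed genes, 2 are not reported here and were left out of the list counts, but stayed in the fit.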

Additional observations from a re-analysis of the deposited data

Results flagged for a closer look

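Single tumors stood apart from the rest of their group in 4 of 64 gene or ratio groups, by Dixon's test at the 95% level, and chance alone gives about 1 in 20 groups. Ctss in WT replicate 4 was at 3777 normalized counts, below the 4811 to 5096 of the other WT tumors. Ifngr1 in Siah2-/- replicate 5 was at 2452, above the 1546 to 1753 of the others. The ratio of Cd74 over H2-Ab1 in Siah2-/- replicate 1 was 2.02, below the 2.11 to 2.15 of the others. H2-Ea-ps in WT replicate 5 was at 1.32 with the others at 1, which is the floor of that tumor times its factor.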

How the results depend on the processing

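Ctss and H2-DMb2 kept their calls in every alternative except scaling to the positive controls, where no member was called (0 of 8, 2 at unadjusted p under 0.05 by limma). Under that scaling Ctss was 0.72 (adjusted p = 0.15), H2-DMb2 -0.88 (0.076), H2-Ab1 0.42 (0.47), Cd74 0.29 (0.66) and H2-Ob -0.14, 0 of the other class II genes, 0 class I genes, 1 interferon gamma gene and 0 costimulatory genes were called, and 95 probes were called (60 higher, 35 lower) against 316. The median of all probes moved by -0.25 under median scaling, -0.28 under quantile scaling, -0.16 with positive controls, -0.42 relative to leukocyte genes and -0.11 with a floor of 20. Under median scaling 2 members and 1 other class II gene were called, with H2-Ab1 at 0.32 (adjusted p = 0.082), Cd74 0.19 (0.25), H2-Eb1 -0.015, H2-Dma -0.091 and H2-Ob -0.24. Under quantile scaling 1 other class II gene and 6 interferon gamma genes (3 higher, 3 lower) were called, with Cd74 at 0.14 (0.33), H2-Eb1 -0.078, H2-Dma -0.21 and H2-Ob -0.20. Relative to leukocyte genes 2 members, 1 other class II gene, 3 class I genes, 3 interferon gamma genes (1 higher, 2 lower) and 1 costimulatory gene were called, with H2-Ab1 at 0.17, Cd74 0.041, H2-Eb1 -0.16, H2-Dma -0.24 and H2-Ob -0.40. The split of higher and lower calls went from 241 and 75 to 163 and 152 under median scaling, 153 and 181 under quantile scaling and 103 and 182 relative to leukocyte genes. Cd74 stayed at 0.46 but lost its call with a floor of 20 (adjusted p = 0.057) and under the methods' t-test (0.065) or unequal variances (0.093), where 1 other class II gene was called. The methods' t-test gave 5 of 8 members at unadjusted p under 0.05 and 3 after Benjamini-Hochberg. The cause of these shifts was not tested.

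With each tumor left out in turn, between 2 (without WT replicate 4) and 5 members (without Siah2-/- replicate 6) and 268 to 334 probes were called. The other lists ranged from 0 to 3 called for other class II genes, 11 to 12 for class I, 3 to 3 for interferon gamma and 2 to 3 for costimulation. The log2 changes ranged from 0.28 to 0.52 for H2-Aa, 0.44 to 0.67 for H2-Ab1, 0.083 to 0.34 for H2-Eb1, 0.051 to 0.26 for H2-Dma, -0.81 to -0.63 for H2-DMb2, -0.13 to 0.22 for H2-Ob, 0.31 to 0.53 for Cd74 and 0.79 to 0.98 for Ctss. The log2 ratios ranged from -0.17 to -0.13 for H2-Aa over H2-Ab1, 0.81 to 0.97 for H2-Dma over H2-DMb2, -0.25 to -0.025 for H2-Ob over H2-Dma, -0.15 to -0.11 for Cd74 over H2-Ab1, 0.40 to 0.48 for Ctss over Cd74 and -1.26 to -1.09 for H2-DMb2 over H2-DMb1. H2-DMb1 passed with a pseudocount of 10 (adjusted p = 0.041), a filter at a mean of 20 (0.036) and an intensity trend (0.032).

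Replicate numbers 2, 3, 5 and 6 occur in both groups, and the correlations of same-numbered tumors were 0.051, 0.14, 0.18 and 0.49, and since replicate 2 was under the 0.1 required of every pair, the numbers were not taken to pair the tumors. In 3 of the 4 numbers the tumors correlated best with their own number, a hint towards pairing that comes from the data and not from the design. With the replicate number as a block on those 8 tumors, 2 members, 0 other class II genes, 1 costimulatory gene and 235 probes were called, with H2-Ab1 at 0.53 (adjusted p = 0.095) and Cd74 at 0.43 (0.14). The ratios under the block were -0.13 for H2-Aa over H2-Ab1, 0.75 for H2-Dma over H2-DMb2, -0.096 for Cd74 over H2-Ab1, 0.39 for Ctss over Cd74 and -1.05 for H2-DMb2 over H2-DMb1, each at an exact p of 0.125, the smallest that 4 pairs allow. Without the block, in a comparison of the same 8 tumors that was added once the data had been seen, 2 members, 0 other class II genes and 232 probes were called, with H2-Ab1 at 0.53 (adjusted p = 0.082), Cd74 at 0.43 (0.13) and H2-Aa over H2-Ab1 at -0.13 (exact p = 0.086).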
